A study of Homo sapiens with 36 samples.

Results

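Glucose uptake and upper glycolysis are described here through 10 genes, taken by name from the 21950 genes of the deposited gene table: the glucose transporters SLC2A1 and SLC2A3, the hexokinases HK1 and HK2, glucose-6-phosphate isomerase GPI, the phosphofructokinases PFKL, PFKM and PFKP, and the bifunctional enzymes PFKFB3 and PFKFB4. The cells were K562, an established human erythroleukemia line, with no change of genotype and no agent other than oxygen. They were kept in incubators at 1%, 5% or 21% oxygen and harvested after 6 h, 24 h, 3 d or 6 d, with a passage at 3 d, which gives 12 groups of 3 libraries and 36 libraries in all. Each oxygen level had its own incubator, so oxygen and incubator cannot be told apart. All values come from this 1 leukemia line, and the labels do not say whether the 3 libraries of a group came from separate cultures, so p-values measure the spread between these libraries, which may be technical.

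Glucose enters a cell through transporters of the SLC2A (GLUT) family, and hexokinase traps it as glucose-6-phosphate. GPI turns that into fructose-6-phosphate, which phosphofructokinase commits to glycolysis. PFKFB enzymes make and break fructose-2,6-bisphosphate, the strongest known activator of phosphofructokinase. Most of these steps have isozymes, and several of the genes are known targets of the hypoxia-inducible factors, HIFs, which are stabilized when oxygen is low and bind hypoxia response elements with the core letters ACGTG or GCGTG. Red cell precursors live mostly on glucose, and mature red cells, which lack mitochondria, rely on glycolysis alone.

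Expression was read as FPKM (fragments per kilobase of transcript, scaled to library size), which lets levels of different genes be set side by side. Differences are on the scale of log2(FPKM + 1), and genes are said to pass where the adjusted p, taken over the 10625 genes with a mean of at least 1 FPKM, was under 0.05. All 10 members were among them. The tables hold no counts, so depth is unknown. Relative depth, estimated from the lowest values, spanned a 2.77-fold range over the 32 libraries that gave an estimate. Replicate 3 of 1% oxygen at 3 d stood apart, with 7220 genes above 0 against 14512 to 19543 elsewhere. It listed 0 for 429 of 3695 well-expressed genes, where no other library did so for more than 7. It is called the shallow library, it was kept in the tests, and results are given without it where it matters. All 8 erythroid markers were expressed, with summed levels of 9041 to 43416 FPKM in 1% oxygen, 9436 to 23186 FPKM in 5% oxygen and 4972 to 21881 FPKM in 21% oxygen. B cell and liver markers summed to at most 2.68 FPKM, fibroblast markers to at most 13.5 FPKM and skeletal muscle markers to at most 16.2 FPKM. The 3 T cell markers summed to 50.3 to 322 FPKM in 1% oxygen, 39.5 to 441 FPKM in 5% oxygen and 45.2 to 105 FPKM in 21% oxygen. Nearly all of that was CD3D (mean 121.9 FPKM), while CD3E and CD2 averaged under 0.1 FPKM, and its part in the results was not tested. In these bulk libraries, fewer cells that make an RNA and less RNA per cell cannot be told apart.

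In 1% oxygen 7 of the 10 genes were higher than in 21% oxygen when averaged over the 4 times, and 1 was lower. The higher genes were SLC2A1, SLC2A3, HK2, GPI, PFKL, PFKP and PFKFB4, PFKM was lower, and HK1 and PFKFB3 did not pass. Averaged differences ran from -0.50 for PFKM to 1.84 for PFKFB4, with a median of 0.66 over the 10 genes beside -0.07 over all genes tested. Over all genes 31.4% passed in this comparison, 12.4% as higher and 19.0% as lower. In 5% oxygen the count was again 7 higher and 1 lower, where 24.2% of all genes passed (9.21% higher and 15.0% lower), and the median over the 10 genes was 0.44 beside -0.04 over all genes. On leaving out the shallow library the counts were 8 higher and 1 lower in 1% oxygen, where 49.0% of all genes passed (23.1% higher and 25.9% lower), and 7 and 1 in 5% oxygen, where 48.4% did. The 1% and 5% comparisons share their 21% libraries, so their likeness is no independent evidence. PFKM in 5% oxygen missed the threshold when values were rescaled or the filter was dropped.

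At 6 h none of the 10 genes passed in limma's test, in 1% oxygen or in 5% oxygen. The share of all genes that passed was 0% in both comparisons. At an unadjusted p under 0.05, 1 of the 10 genes (GPI) was found in 1% oxygen and 0 in 5% oxygen, among 351 and 280 of the 10625 genes tested. At 24 h 4 of the 10 genes were higher and 0 lower in 1% oxygen. There 16.2% of all genes passed (6.56% higher and 9.66% lower). In 5% oxygen 0 of the 10 passed, where 9.38% of all genes did. In that comparison 1 of the 10 genes (HK2) had an unadjusted p under 0.05, a looser cut to which that share does not apply. With the shallow library left out, the 24 h counts were 8 in 1% oxygen and 2 in 5% oxygen, all higher, beside 38.6% and 28.2% of all genes. At 3 d 6 genes were higher and 2 lower in 1% oxygen, beside 16.9% of all genes higher and 36.3% lower (53.2% in all). With the shallow library left out of that group, the 3 d counts in 1% oxygen were 7 higher and 1 lower, beside 25.2% and 28.5% of all genes (53.7% in all), and the median over all genes was -0.01 in place of -0.32. In 5% oxygen 7 were higher and 0 lower at 3 d, beside 8.25% and 13.6% of all genes (21.8% in all). At 6 d both levels had 7 genes higher and 1 lower, beside 5.84% of all genes higher and 5.04% lower in 1% oxygen (10.9% in all), and 7.24% higher and 7.59% lower in 5% oxygen (14.8% in all). Without the shallow library the 10 genes had 7 higher and 1 lower in 5% oxygen at 3 d (44.9% of all genes), 9 and 1 in 1% oxygen at 6 d (29.8%), and 7 and 1 in 5% oxygen at 6 d (37.0%).

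**Figure D1:**
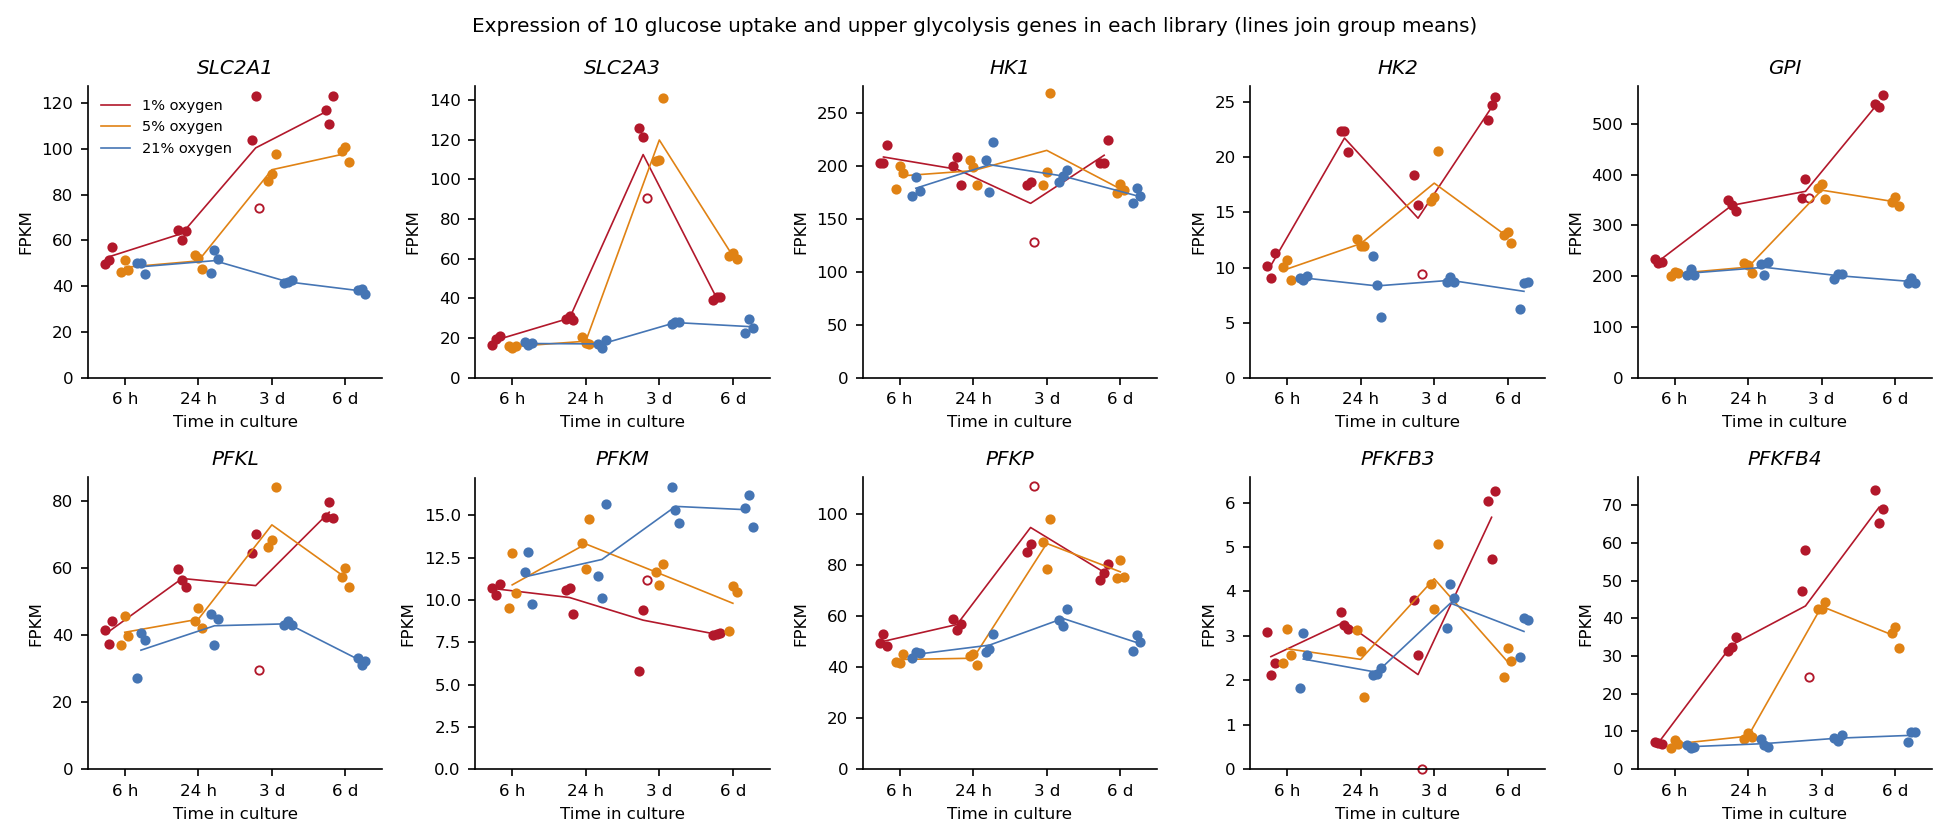
FPKM of the 10 genes in each library, by time in culture (6 h to 6 d, axes from 0), for 1%, 5% and 21% oxygen; points are libraries, lines join group means of 3, and the open point is the shallow library. In 21% oxygen SLC2A1 had its lowest group mean, 37.9 FPKM, at 6 d, while the 1% and 5% oxygen means of that time were 117 and 98.0 FPKM, and SLC2A3 had a 3 d maximum at both low oxygen levels.

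GPI and HK1 were the most abundant of the 10 RNAs in all 12 groups, and PFKFB3 was the least abundant in all 12. GPI came first in each group, but its libraries overlapped those of HK1 in 5% oxygen at 6 h and in 21% oxygen at 24 h and 3 d. At 6 d in 1% oxygen the order after GPI (543 FPKM) and HK1 (210.0 FPKM) was SLC2A1 (117 FPKM), PFKP (77.2 FPKM), PFKL (76.6 FPKM), PFKFB4 (69.5 FPKM), SLC2A3 (40.1 FPKM), HK2 (24.5 FPKM), PFKM (7.97 FPKM) and PFKFB3 (5.67 FPKM). PFKP and PFKL were the only neighbours there whose libraries overlapped. At 6 d in 21% oxygen PFKM, at 15.3 FPKM, stood above PFKFB4 (8.96 FPKM) and HK2 (7.84 FPKM), whose libraries overlapped each other. In 1% oxygen at that time PFKM was below both, with no overlap.

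**Figure D2:**
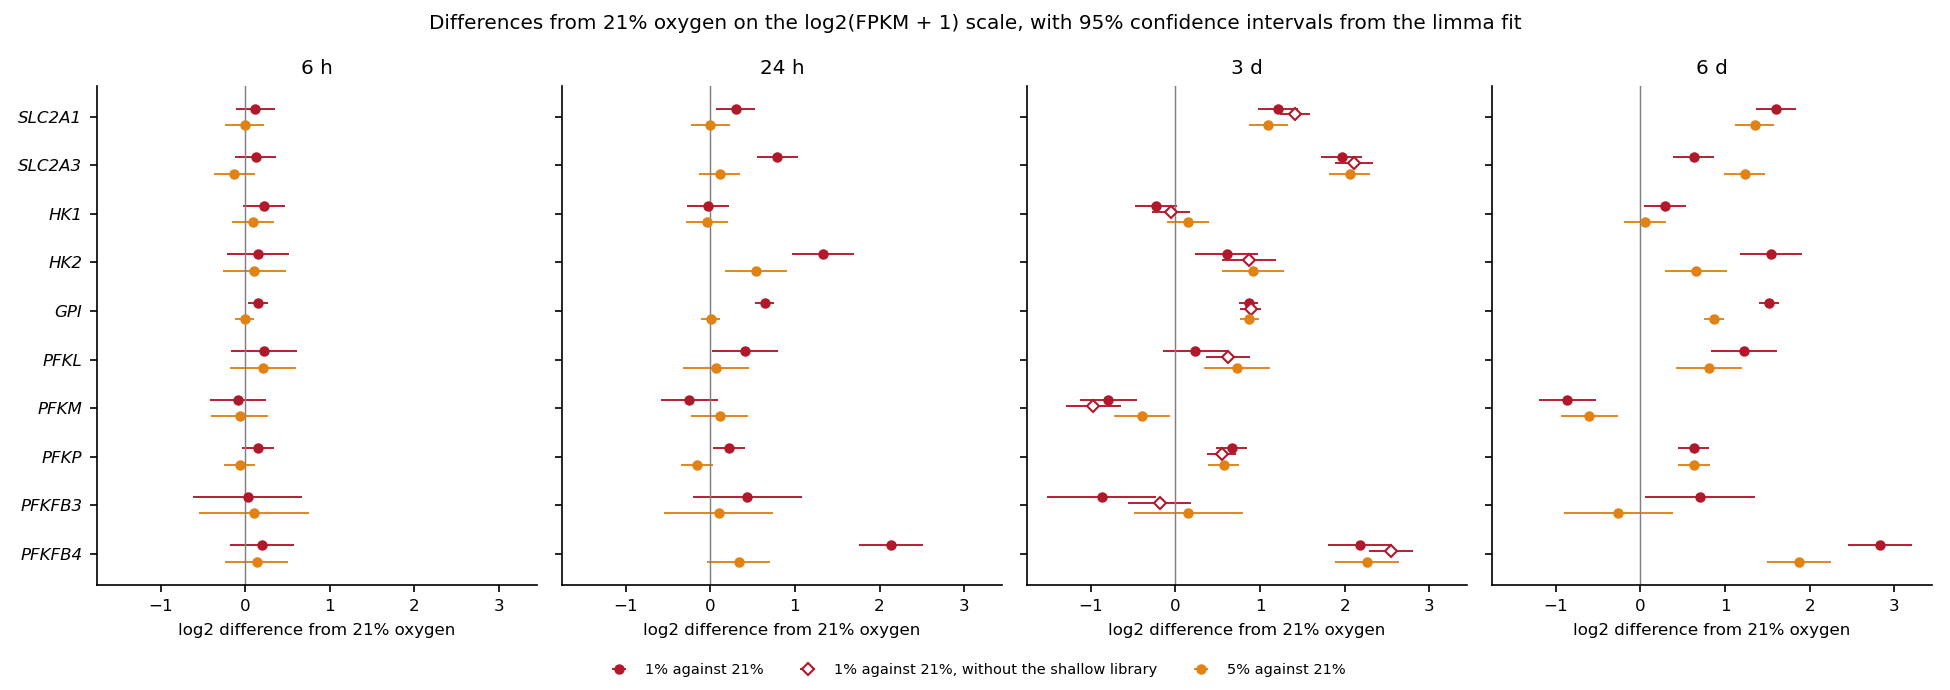
Differences of 1% and 5% oxygen from 21% oxygen on the log2(FPKM + 1) scale for the 10 genes, 1 panel per time, with 95% confidence intervals from the limma fit of all 36 libraries; open diamonds give 1% oxygen at 3 d without the shallow library. At 6 h all differences lie near 0, and at 6 d PFKFB4 reaches 2.83 in 1% oxygen while PFKM lies at -0.86.

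SLC2A1 (GLUT1), the main transporter of erythroid cells, was higher at both low oxygen levels from 3 d on. At 6 d it had 117, 111 and 123 FPKM in 1% oxygen, 99.1, 100.7 and 94.1 FPKM in 5% oxygen, and 38.3, 38.9 and 36.5 FPKM in 21% oxygen. All libraries at the low levels were above all libraries at 21%, by 3.09-fold in 1% oxygen (log2 difference 1.60 ± 0.11, SE; adjusted p 1.95e-11) and 2.59-fold in 5% oxygen (1.35 ± 0.11; adjusted p 5.77e-10). At 3 d it had 104, 123 and 74.2 FPKM in 1% oxygen, the last in the shallow library, then 86.0, 89.0 and 97.8 FPKM in 5% oxygen and 41.2, 41.7 and 42.7 FPKM in 21% oxygen. Again the low-oxygen libraries were all above those at 21%, with log2 differences of 1.21 in 1% oxygen (1.41 without the shallow library) and 1.10 in 5% oxygen. At 24 h the values were 64.8, 60.4 and 64.1 FPKM in 1% oxygen, 53.5, 52.3 and 47.3 FPKM in 5% oxygen, and 45.7, 56.0 and 51.8 FPKM in 21% oxygen. The 1% libraries lay above the others, but the difference from 21% of 0.30 did not pass (adjusted p 0.0687; 0.00314 without the shallow library). In 21% oxygen itself SLC2A1 was lower at 6 d than at 6 h (log2 difference -0.35, adjusted p 0.0452), a call that was lost without a filter, after rescaling, with the replicate number as a block (adjusted p 0.0502), and without replicate 1 or 2 at 6 h or any 1 replicate at 6 d.

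SLC2A3 (GLUT3), a transporter of high glucose affinity, followed another time course, with its maximum at 3 d. At 3 d it had 126, 121 and 90.4 FPKM in 1% oxygen, 109.1, 109.5 and 141 FPKM in 5% oxygen, and 27.2, 28.2 and 27.8 FPKM in 21% oxygen. The lowest value at the low levels, that of the shallow library, was still above all 3 at 21%, and the log2 differences were 1.97 ± 0.12 in 1% oxygen (adjusted p 2.53e-13) and 2.06 ± 0.12 in 5% oxygen (adjusted p 1.93e-13). At 6 d it had 38.9, 40.4 and 40.9 FPKM in 1% oxygen, 61.2, 62.8 and 59.8 FPKM in 5% oxygen, and 22.6, 29.7 and 24.9 FPKM in 21% oxygen. All 3 groups stood apart, and 5% oxygen was now the highest: 1% oxygen was below 5% oxygen by a log2 difference of -0.60 ± 0.12 (adjusted p 0.000877). Of the 10 genes, SLC2A3 alone was significantly lower in 1% than in 5% oxygen at that time, and 3 were higher, where 8.61% of all genes passed, 4.72% as higher and 3.9% as lower. On leaving out the shallow library 6 were higher and 1 lower, beside 27.6% of all genes.

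The drop of SLC2A3 from its 3 d level was tested in comparisons of 6 d against 3 d that were added after its values were seen. It was -1.45 ± 0.12 on the log2 scale in 1% oxygen (adjusted p 2.25e-10; -1.60 without the shallow library) and -0.95 ± 0.12 in 5% oxygen (adjusted p 1.36e-05). In 21% oxygen it was -0.11 ± 0.12 (adjusted p 1). The change differed from that in 21% oxygen by -1.34 in 1% oxygen (adjusted p 9.9e-07) and by -0.83 in 5% oxygen (adjusted p 0.0171; 0.000589 without the shallow library), the call in 5% oxygen being lost without replicate 1 of 21% oxygen at 3 d, replicate 2 of 21% oxygen at 6 d, replicate 3 of 5% oxygen at 3 d or replicate 1 or 3 of 5% oxygen at 6 d, and after rescaling to TPM (FPKM rescaled so that all libraries have the same total). Over all genes 49.0% passed for 6 d against 3 d in 1% oxygen, 7.41% in 5% oxygen and 1.06% in 21% oxygen, and for the differences between these changes 28.4% in 1% oxygen and 0.254% in 5% oxygen. Of the 10 genes, 6 were higher and 2 (SLC2A3 and PFKP) lower at 6 d than at 3 d in 1% oxygen, and 4 and 1 without the shallow library, beside 44.6% of all genes. The 3 d harvest was also the time of the passage, and the part of culture density was not tested. SLC2A1 had no such drop: its 6 d against 3 d difference was 0.25 in 1% oxygen (adjusted p 0.0699) and 0.11 in 5% oxygen (adjusted p 0.736).

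The share of SLC2A3 in the summed FPKM of both transporters changed its order over the oxygen levels with time. At 3 d it was 53.1% ± 3.0 in 1% oxygen, 56.7% ± 2.0 in 5% oxygen and 39.9% ± 0.45 in 21% oxygen (SD, n = 3 each). At 6 d it was 25.5% ± 1.0 in 1% oxygen, 38.5% ± 0.33 in 5% oxygen and 40.3% ± 3.1 in 21% oxygen. The 1% libraries were thus all above those at 21% at 3 d and all below them at 6 d, and each such comparison of 3 against 3 has a smallest possible exact permutation p of 0.1. Averaged over the 4 times the share was 34.3% in 1% oxygen, 36.5% in 5% oxygen and 32.8% in 21% oxygen. Neither low level differed from 21% oxygen in a two-sided permutation test with labels shuffled within times (adjusted p 0.632 and 0.112 over 18 share comparisons, 12 libraries each). The SLC2A3 sequence is close to that of SLC2A14, whose levels were 1.32, 2.02 and 0.904 FPKM in 1%, 5% and 21% oxygen, and short reads that match both may have been split between them.

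**Figure D3:**
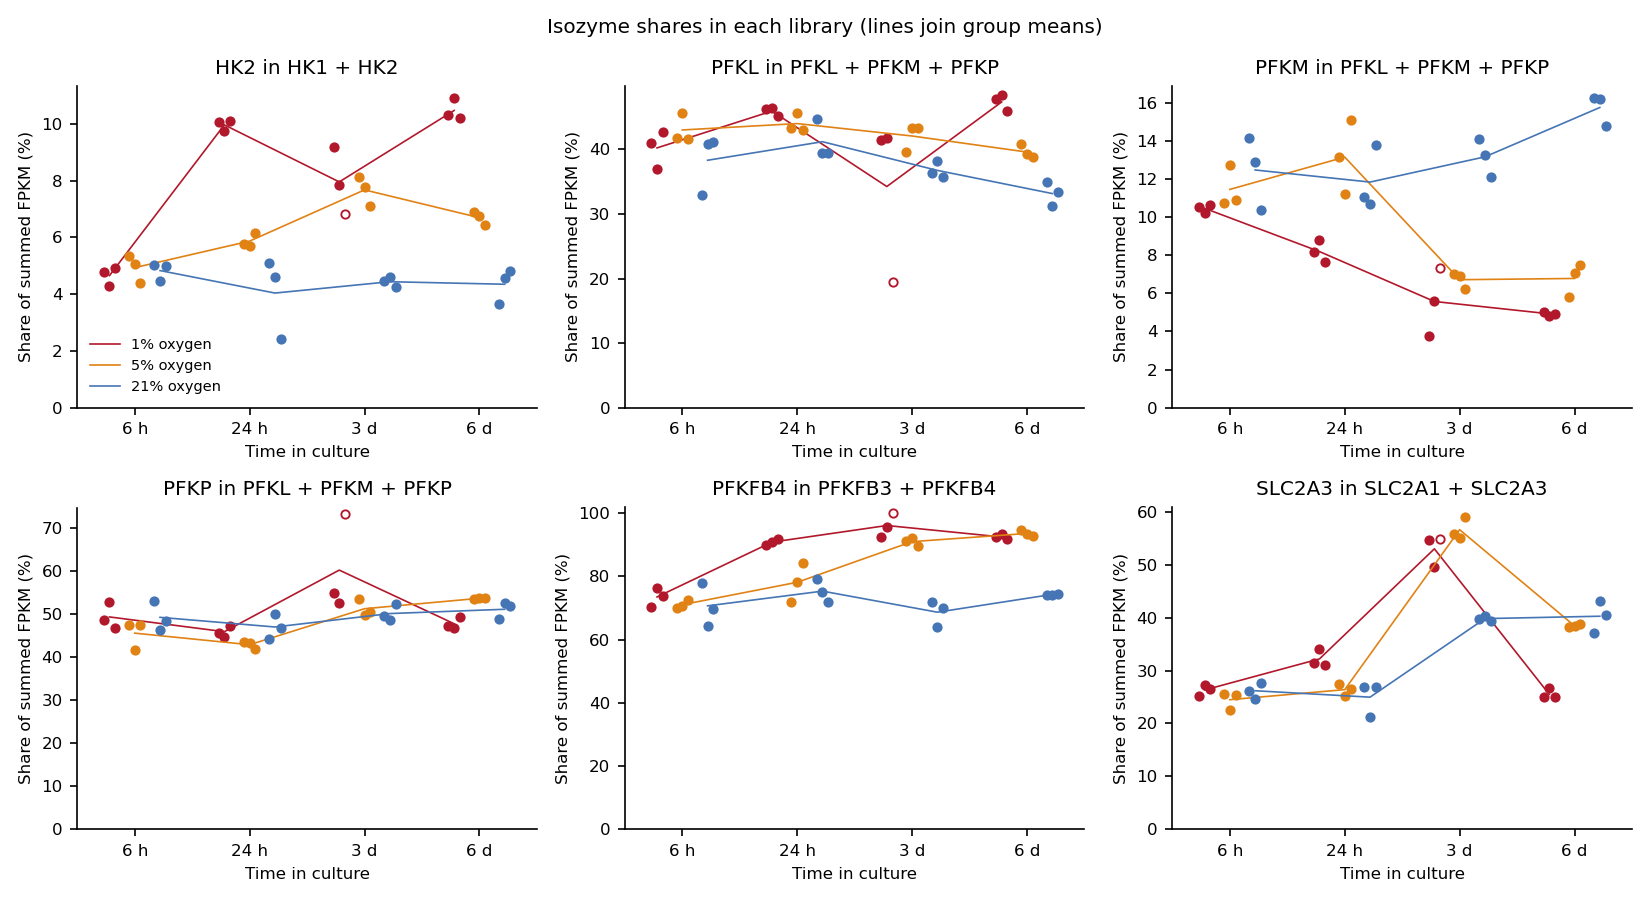
Share of 1 isozyme in the summed FPKM of its family (percent, axes from 0) in each library, by time, for 1%, 5% and 21% oxygen; points are libraries, lines join group means of 3, and the open point is the shallow library. The PFKM share at 6 d was 4.93% in 1% oxygen, 6.78% in 5% oxygen and 15.8% in 21% oxygen, and the SLC2A3 share has its low-oxygen maximum at 3 d.

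HK2, the inducible hexokinase of muscle, fat and many tumours, was higher in low oxygen, while HK1 carried most of the hexokinase RNA throughout. At 24 h HK2 had 22.4, 22.4 and 20.5 FPKM in 1% oxygen, 12.6, 11.99 and 11.95 FPKM in 5% oxygen, and 11.05, 8.44 and 5.50 FPKM in 21% oxygen. The 1% libraries were all above the rest (log2 difference from 21% oxygen 1.33 ± 0.18, adjusted p 2.4e-05). The 5% libraries were also above those at 21%, but that difference of 0.54 did not pass (adjusted p 0.0566; 0.00556 without the shallow library). At 6 d HK2 had 23.4, 24.8 and 25.5 FPKM in 1% oxygen, 12.9, 13.2 and 12.2 FPKM in 5% oxygen, and 6.25, 8.55 and 8.71 FPKM in 21% oxygen. The 3 groups did not overlap, with differences of 1.54 in 1% oxygen (3.13-fold, adjusted p 3.57e-07) and 0.65 in 5% oxygen (1.63-fold, adjusted p 0.0119). At 3 d the 2 low levels were closer, at 18.4, 15.7 and 9.37 FPKM in 1% oxygen, the last in the shallow library, and 16.0, 16.4 and 20.6 FPKM in 5% oxygen, against 8.66, 9.15 and 8.71 FPKM in 21% oxygen. Their libraries overlapped each other and lay above those at 21% oxygen.

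HK1 averaged 194.9 FPKM in 1% oxygen, 194.7 FPKM in 5% oxygen and 185.5 FPKM in 21% oxygen over the 4 times. The averaged log2 differences from 21% oxygen were 0.06 ± 0.06 in both (adjusted p 0.446 and 0.509), and HK1 passed against 21% oxygen at none of the 4 times; at 6 d in 1% oxygen it did without the shallow library (0.29, adjusted p 0.0269). Both averaged calls came only after quantile normalization (0.23 and 0.24) or rescaling to TPM (0.22 and 0.21). The HK2 share of hexokinase RNA was low: averaged over the times it was 8.26% in 1% oxygen, 6.29% in 5% oxygen and 4.41% in 21% oxygen. These shares differed between 1% and 21% oxygen (adjusted p 0.0009), between 5% and 21% oxygen (adjusted p 0.00078) and between 1% and 5% oxygen (adjusted p 0.00589), by the same permutation test with 12 libraries each. At 6 d in 1% oxygen the share was 10.5% ± 0.38, against 6.70% ± 0.24 in 5% oxygen and 4.35% ± 0.62 in 21% oxygen (SD, n = 3 each).

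The hexokinase windows below run from 250 bases before a RefSeq start to 50 after it, 5′ to 3′ on the strand of the gene, with ACGTG or GCGTG on either strand in capitals (CACGTG reads ACGTG on both strands and counts as 2 matches). They set a gene whose level differed beside its isozyme, and the windows shown are a choice among those listed. HK2 (a), chr2:74833877-74834176, is the window nearest the start of its listed transcript NM_000189, at 146 bases from it. HK2 (b), chr2:74834920-74835219, lies farther off, 1189 bases from that start, and holds the most matches of any window of the 10 genes. Both are on the plus strand of GRCh38.p14. The HK1 window, chr10:69315519-69315818 on the plus strand, has its RefSeq start 16 bases from the annotated start of NM_033496, the transcript with most of the HK1 signal. All distances of windows from transcripts run between those starts.
HK2 (a): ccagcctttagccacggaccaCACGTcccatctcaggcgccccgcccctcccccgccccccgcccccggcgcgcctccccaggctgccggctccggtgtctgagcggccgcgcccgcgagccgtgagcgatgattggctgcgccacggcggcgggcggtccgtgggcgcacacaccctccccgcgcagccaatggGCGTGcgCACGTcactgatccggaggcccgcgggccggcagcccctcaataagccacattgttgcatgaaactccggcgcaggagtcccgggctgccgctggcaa
HK2 (b): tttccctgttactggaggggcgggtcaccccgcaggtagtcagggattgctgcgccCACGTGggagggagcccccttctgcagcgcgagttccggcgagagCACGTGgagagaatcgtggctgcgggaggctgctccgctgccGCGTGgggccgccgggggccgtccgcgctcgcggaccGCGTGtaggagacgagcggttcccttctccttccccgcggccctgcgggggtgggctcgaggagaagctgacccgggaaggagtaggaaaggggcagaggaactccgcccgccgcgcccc
HK1: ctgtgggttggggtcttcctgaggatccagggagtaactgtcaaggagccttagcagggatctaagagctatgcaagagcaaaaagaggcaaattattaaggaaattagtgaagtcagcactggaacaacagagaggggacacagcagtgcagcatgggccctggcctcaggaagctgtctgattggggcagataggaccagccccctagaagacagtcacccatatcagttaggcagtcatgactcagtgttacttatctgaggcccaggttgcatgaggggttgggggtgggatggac
HK2 (a) holds 3 matches and HK2 (b) holds 6, among them 2 copies of CACGTG, while these letters are not in the HK1 window shown. HK1 has 7 windows in the table, and 2 of them, 220 and 663 bases from the annotated start of its transcript NM_000188, hold 1 GCGTG each. Of 35116 windows of this length in the RefSeq table, 48.4% hold at least 1 match and 0.923% hold 6 or more. HK2 (b) has the most matches among the windows of the 10 genes, so the last share does not measure how unusual it is. Of the 10 genes 9 have windows in the table, 26 in all, and 14 of the 26 hold a match, at least 1 for each of the 9 genes. These matches describe letters and are not shown to be bound.

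The transcript table splits HK1 over 5 transcripts, of which NM_033496 held 90.7% of the mean signal and NM_000188 9.33%. Their levels are the authors' estimates from 25-base paired reads and are given as a description, with no test. At 6 d NM_000188 had 7.94, 5.95 and 9.30 FPKM in 1% oxygen, 17.1, 14.4 and 26.1 FPKM in 5% oxygen, and 22.8, 29.8 and 34.3 FPKM in 21% oxygen. NM_033496 had 195.0, 196 and 215 FPKM in 1% oxygen, 158, 168 and 151 FPKM in 5% oxygen, and 142, 149 and 137 FPKM in 21% oxygen. The 2 transcripts thus lay in opposite order over the oxygen levels at 6 d, and the 1% libraries overlapped none of the others in either. The NM_000188 share of HK1 was 3.7% in 1% oxygen, 10.8% in 5% oxygen and 16.8% in 21% oxygen at that time. At 6 h the shares were 9.9%, 7.9% and 11.7% in 1%, 5% and 21% oxygen.

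**Figure D4:**
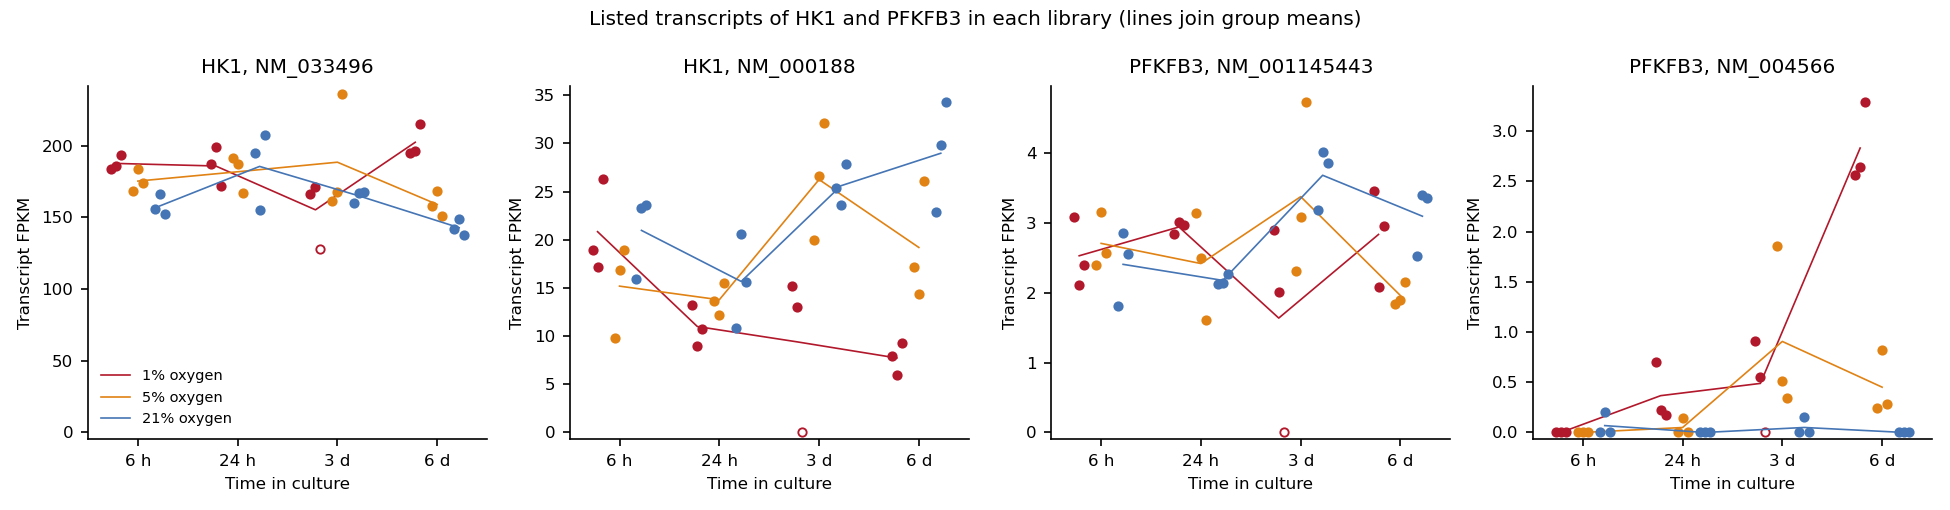
FPKM of the main listed transcripts of HK1 and PFKFB3 in each library, by time, for 1%, 5% and 21% oxygen; points are libraries, lines join group means of 3, and the open point is the shallow library. PFKFB3 transcript NM_004566 lies at 2.57 to 3.29 FPKM in 1% oxygen at 6 d and near 0 in nearly all libraries of 21% oxygen.

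GPI, the isomerase between hexokinase and phosphofructokinase, has no isozyme among the 10 genes and was higher in 1% oxygen from 24 h on and in 5% oxygen from 3 d on. At 24 h it had 351, 341 and 327 FPKM in 1% oxygen, 226, 221 and 206 FPKM in 5% oxygen, and 223, 201 and 228 FPKM in 21% oxygen. The 1% libraries stood above both other groups, which overlapped (log2 difference from 21% oxygen 0.64 ± 0.06, adjusted p 1.17e-08, and 0.00 in 5% oxygen). At 3 d it had 355, 392 and 355 FPKM in 1% oxygen, 374, 382 and 352 FPKM in 5% oxygen, and 195, 204 and 203 FPKM in 21% oxygen. The 2 low levels overlapped each other, and the shallow library did not stand apart. At 6 d GPI had 540, 533 and 556 FPKM in 1% oxygen, 345, 356 and 338 FPKM in 5% oxygen, and 186, 196 and 186 FPKM in 21% oxygen. The 3 groups were clear of one another, at 2.87-fold and 1.83-fold over 21% oxygen (1.52 and 0.87 on the log2 scale). GPI was also higher in 1% than in 5% oxygen at 24 h (0.64, adjusted p 2.32e-08) and at 6 d (0.65, adjusted p 5.98e-09), and not at 3 d (-0.01, adjusted p 0.897).

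Among the phosphofructokinases, PFKL and PFKP carried most of the RNA, and PFKM was the minor and only lower form. PFKL, the liver type that red cells also use, had 75.2, 79.7 and 75.0 FPKM in 1% oxygen at 6 d, 57.2, 59.9 and 54.3 FPKM in 5% oxygen, and 33.2, 31.2 and 32.3 FPKM in 21% oxygen. The groups did not overlap, and the differences from 21% oxygen were 1.22 (adjusted p 3.49e-05) and 0.81 (adjusted p 0.00327). At 3 d PFKL had 64.6, 70.1 and 29.6 FPKM in 1% oxygen, 66.1, 68.3 and 84.1 FPKM in 5% oxygen, and 43.1, 44.1 and 42.9 FPKM in 21% oxygen. The low value in 1% oxygen was that of the shallow library: the difference from 21% oxygen was 0.24 with it (adjusted p 0.294) and 0.62 without it (adjusted p 0.000124).

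PFKP, the platelet type, was higher at 3 d and 6 d. At 6 d it had 74.1, 77.0 and 80.5 FPKM in 1% oxygen, 74.9, 82.0 and 75.3 FPKM in 5% oxygen, and 46.4, 52.6 and 50.002 FPKM in 21% oxygen. The low levels overlapped each other and lay above 21% oxygen, each with a difference of 0.63 (adjusted p 1.24e-05 and 8.6e-06). PFKM, the muscle type, had 7.91, 7.97 and 8.02 FPKM in 1% oxygen at 6 d, 8.14, 10.8 and 10.5 FPKM in 5% oxygen, and 15.5, 16.2 and 14.3 FPKM in 21% oxygen. All libraries at the low levels were below those at 21%, at 0.520 of its mean in 1% oxygen (-0.86 ± 0.16, adjusted p 0.00047) and 0.640 of it in 5% oxygen (-0.60 ± 0.16, adjusted p 0.0105). In 21% oxygen PFKM averaged 11.4, 12.4, 15.5 and 15.3 FPKM at 6 h, 24 h, 3 d and 6 d, but neither later time passed against 6 h (adjusted p 0.168 at 3 d and 0.125 at 6 d); both did without the shallow library (0.0386 and 0.0324).

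Summed phosphofructokinase RNA at 6 d was 162 ± 4.1 FPKM in 1% oxygen, 144 ± 7.3 FPKM in 5% oxygen and 97.2 ± 2.6 FPKM in 21% oxygen (SD, n = 3 each). Averaged over the times, PFKM made up 7.29% of the sum in 1% oxygen, 9.53% in 5% oxygen and 13.3% in 21% oxygen. These shares differed between 1% and 21% oxygen (adjusted p 0.00078), 5% and 21% oxygen (adjusted p 0.00783) and 1% and 5% oxygen (adjusted p 0.00111; permutation tests, 12 libraries each). PFKL made up 42.0% in 1% oxygen, 42.2% in 5% oxygen and 37.4% in 21% oxygen. Its excess over 21% oxygen passed in 5% oxygen (4.81 percentage points, adjusted p 0.0009) but not in 1% oxygen (4.59 points, adjusted p 0.106; 6.43 points and 0.00123 without the shallow library). The PFKP share, at 50.8%, 48.3% and 49.3% in 1%, 5% and 21% oxygen, did not pass in any comparison.

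PFKFB4, which raises fructose-2,6-bisphosphate and was first known from testis, had the largest differences of the 10 genes in both averaged comparisons. At 24 h it had 31.5, 32.4 and 35.02 FPKM in 1% oxygen, 8.07, 9.60 and 8.53 FPKM in 5% oxygen, and 8.01, 6.43 and 5.83 FPKM in 21% oxygen. The 1% libraries were far above the rest (2.14 ± 0.18 against 21% oxygen, 4.88-fold, adjusted p 7.45e-09), and the 5% libraries were above those at 21% without passing (0.33, adjusted p 0.319; 0.0281 without the shallow library). At 3 d it had 47.4, 58.1 and 24.4 FPKM in 1% oxygen, the last in the shallow library, 42.6, 42.5 and 44.4 FPKM in 5% oxygen, and 8.20, 7.36 and 9.05 FPKM in 21% oxygen. Both low levels were clear of 21% oxygen (2.19 and 2.27), and 1% oxygen lay on both sides of 5% oxygen (-0.08, adjusted p 0.732). Only the shallow library lay below 5% oxygen, and without it the difference was 0.28 (adjusted p 0.107). At 6 d it had 74.0, 65.4 and 69.1 FPKM in 1% oxygen, 36.02, 37.8 and 32.1 FPKM in 5% oxygen, and 7.30, 9.78 and 9.81 FPKM in 21% oxygen. The groups stood in steps with no overlap, at 7.75-fold (2.83 ± 0.18, adjusted p 3.47e-12) and 3.94-fold (1.87 ± 0.18, adjusted p 1.2e-08) over 21% oxygen.

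PFKFB3, the family member with the highest kinase activity and a known hypoxia target in other cells, was low and did not pass on average (0.07 ± 0.16 in 1% oxygen, adjusted p 0.751; 0.25 and 0.0161 without the shallow library). At 6 d it had 6.04, 4.72 and 6.25 FPKM in 1% oxygen, 2.08, 2.72 and 2.44 FPKM in 5% oxygen, and 2.53, 3.41 and 3.36 FPKM in 21% oxygen. The 1% libraries were above all others, but the difference from 21% oxygen of 0.70 passed only without the shallow library (adjusted p 0.187 with it and 0.00152 without). At 3 d the shallow library listed 0 beside 3.81 and 2.57 FPKM in 1% oxygen, against 3.18, 4.16 and 3.86 FPKM in 21% oxygen. The difference of -0.87 at 3 d (adjusted p 0.0224) rested on that library and was -0.19 without it (adjusted p 0.399). PFKFB4 made up 88.2% of the RNA of both genes in 1% oxygen, 83.4% in 5% oxygen and 72.2% in 21% oxygen, averaged over the times. This sum leaves out PFKFB2, which averaged 7.32 FPKM over all libraries beside 3.08 FPKM for PFKFB3, so these are not shares of the whole PFKFB family. All 3 pairs of oxygen levels differed in this averaged share by permutation tests with 12 libraries each. The adjusted p was 0.00078 for 1% against 21%, 0.00391 for 5% against 21% and 0.00783 for 1% against 5% oxygen. The excess of 1% over 5% oxygen was 12.7 points at 24 h and 5.1 points at 3 d, where the shallow library had 100%. At 6 h and 6 d the libraries of these levels overlapped, with 92.5% in 1% and 93.6% in 5% oxygen at 6 d.

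The PFKFB3 gene level hid a difference between its 2 listed transcripts. NM_004566 had 2.57, 2.64 and 3.29 FPKM in 1% oxygen at 6 d, 0.246, 0.821 and 0.287 FPKM in 5% oxygen, and values near 0 in all 3 libraries of 21% oxygen. In 21% oxygen it exceeded 0.1 FPKM in 2 of 12 libraries, at 0.206 FPKM at 6 h and 0.150 FPKM at 3 d. NM_001145443 had 3.47, 2.08 and 2.97 FPKM in 1% oxygen at 6 d, 1.84, 1.90 and 2.15 FPKM in 5% oxygen, and 2.53, 3.41 and 3.36 FPKM in 21% oxygen. So the 1% and 21% libraries overlapped for NM_001145443 and were far apart for NM_004566, which held 50.3% of the PFKFB3 signal in 1% oxygen at 6 d. In 1% oxygen NM_004566 averaged near 0 at 6 h, 0.37 FPKM at 24 h and 0.49 FPKM at 3 d (0.733 FPKM without the shallow library, which listed 0), and in 5% oxygen it had 1.86, 0.516 and 0.344 FPKM at 3 d.

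The 2 PFKFB3 transcripts have separate starts in RefSeq, and both windows are shown with that of PFKFB4 because their estimated levels differed. PFKFB3 (a) is chr10:6202682-6202981, 1 base from the annotated start of NM_004566, and PFKFB3 (b) is chr10:6144671-6144970, 13 bases from that of NM_001145443, both on the plus strand. PFKFB4 is chr3:48556754-48557053 on the minus strand, 87 bases from the start of NM_004567. Coordinates are GRCh38.p14, and capitals mark ACGTG or GCGTG on either strand.
PFKFB3 (a): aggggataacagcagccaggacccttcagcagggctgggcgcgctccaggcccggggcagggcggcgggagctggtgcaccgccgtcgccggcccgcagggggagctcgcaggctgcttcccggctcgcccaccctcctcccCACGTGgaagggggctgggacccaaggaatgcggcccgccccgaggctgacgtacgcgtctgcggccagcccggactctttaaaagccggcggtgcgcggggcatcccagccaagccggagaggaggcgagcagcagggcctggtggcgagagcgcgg
PFKFB3 (b): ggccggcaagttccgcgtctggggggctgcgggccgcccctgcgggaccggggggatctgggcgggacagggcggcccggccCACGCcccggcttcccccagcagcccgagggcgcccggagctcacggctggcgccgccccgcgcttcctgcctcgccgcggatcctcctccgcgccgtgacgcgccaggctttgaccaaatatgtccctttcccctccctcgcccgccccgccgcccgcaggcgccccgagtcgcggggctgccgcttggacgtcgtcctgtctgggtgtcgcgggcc
PFKFB4: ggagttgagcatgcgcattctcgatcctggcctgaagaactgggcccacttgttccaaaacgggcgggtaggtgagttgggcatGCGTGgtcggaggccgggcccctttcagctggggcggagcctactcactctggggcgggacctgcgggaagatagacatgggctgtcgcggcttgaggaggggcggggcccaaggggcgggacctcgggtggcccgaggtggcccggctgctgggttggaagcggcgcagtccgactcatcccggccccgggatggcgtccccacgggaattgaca
PFKFB3 (a) holds CACGTG, 108 bases before the start, letters that 7.26% of the 35116 windows hold. PFKFB3 (b) and PFKFB4 each hold 1 GCGTG, 168 and 166 bases before the start, as 36.5% of all windows hold at least 1.

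The cells in 1% oxygen were also set against those in 5% oxygen. Averaged over the times, 5 of the 10 genes were higher in 1% than in 5% oxygen and 0 were lower, where 2.89% of all genes were higher and 1.52% lower (4.41% in all): PFKFB4 (0.69 ± 0.09, adjusted p 2e-05), GPI (0.36 ± 0.03, adjusted p 2.8e-09), HK2 (0.35 ± 0.09, adjusted p 0.0205), SLC2A1 (0.20 ± 0.06, adjusted p 0.04) and PFKP (0.17 ± 0.05, adjusted p 0.0262). Without the shallow library 5 were higher and 1 lower, beside 14.2% of all genes. SLC2A1 and PFKP lost the call in 2 or more of the settings tried, and the count was 3 without replicate 3 at 24 h, replicate 2 at 3 d or replicate 1 or 3 at 6 d of 5% oxygen, or without replicate 2 at 6 h or replicate 1 at 24 h of 1% oxygen. At 6 h 0 of the 10 genes passed, where 0.0471% of all genes did. At an unadjusted p under 0.05 there were 3, a looser cut to which that share does not apply. At 24 h 5 were higher and 0 lower, where 0.668% of all genes were higher and 0.0753% lower (0.744% in all): PFKFB4 (1.80), HK2 (0.79), SLC2A3 (0.68), GPI (0.64) and PFKP (0.38). That count was 3 on leaving out any 1 of the 6 libraries compared. At 3 d 0 were higher and 3 lower (PFKFB3, PFKL and HK1), where 13.4% of all genes were higher and 23.2% lower (36.6% in all), and each of these calls was lost without the shallow library, as also without replicate 3 of 5% oxygen at 3 d. Without the shallow library SLC2A1 was higher (0.32, adjusted p 0.0085) and PFKM lower (-0.57, adjusted p 0.00861) at 3 d. The 3 d shares of all genes above are from the fit with that library, so they give no background for these calls. At 6 d PFKFB4 (0.96), HK2 (0.89) and GPI (0.65) were higher and SLC2A3 lower.

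In 21% oxygen few of the 10 genes moved with time. At 24 h against 6 h 0 passed (0 at an unadjusted p under 0.05), beside 0.132% of all genes. At 3 d SLC2A3 (0.66, adjusted p 0.00076) and PFKP (0.38, adjusted p 0.0106) were higher than at 6 h, beside 4.6% of all genes. At 6 d SLC2A3 was higher (0.55, adjusted p 0.00249) and SLC2A1 lower, beside 11.1% of all genes. On leaving out the shallow library 5 genes passed at 3 d (18.1% of all genes) and 4 at 6 d (29.3%). SLC2A3 had 22.6, 29.7 and 24.9 FPKM at 6 d in 21% oxygen, against 17.9, 16.4 and 17.3 FPKM at 6 h, without overlap.

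Whether the differences from 21% oxygen varied over the 4 times was tested with a moderated F test. All 10 genes passed in 1% oxygen, where 40.3% of all genes did, and 5 passed in 5% oxygen (SLC2A1, SLC2A3, GPI, PFKP and PFKFB4), where 14.5% did. On leaving out the shallow library 9 passed in 1% oxygen, beside 63.3% of all genes, and 8 in 5% oxygen, beside 41.9%.

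Neighbouring branches and steps gave a comparison for these genes, from lists of pathway genes. Of 14 tested genes from aldolase to lactate dehydrogenase, 11 were higher and 1 was lower in 1% than in 21% oxygen, averaged over the times, with a median difference of 0.58, beside 12.4% of all genes higher and 19.0% lower in this comparison (31.4% in all). The smallest adjusted p values were those of the aldolases ALDOC (1.76) and ALDOA (0.98), phosphoglycerate kinase PGK1 (0.99) and lactate dehydrogenase LDHA (1.18). Of 11 tested genes of the pentose phosphate and hexosamine branches, which draw on the products of hexokinase and GPI, 0 were higher and 4 were lower: transketolase TKT (-0.25), the isomerase RPIA (-0.97, and -0.72 without the shallow library, which listed it at 0), transaldolase TALDO1 (-0.13) and UAP1 (-0.12), which makes UDP-N-acetylglucosamine. A share of 4 in 11 is near the 31.4% of all genes that passed. These counts became 2 higher and 5 lower without the shallow library, beside 49.0% of all genes. In 5% oxygen that list had 2 higher and 3 lower, beside 24.2% of all genes (9.21% higher and 15.0% lower).

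Of 23 other transporters and isozymes, only 7 reached a mean of 1 FPKM. PFKFB2, the heart type of the PFKFB family, was higher in 1% oxygen, at 9.19 FPKM against 4.78 FPKM in 21% oxygen (0.73, adjusted p 6.58e-10), and ADPGK, an ADP-dependent glucokinase, was lower (-0.29, adjusted p 0.00623). SLC2A8, SLC2A11, SLC2A12, SLC2A14 and G6PC3 did not pass, so that 2 of the 7 passed, beside 31.4% of all genes. Without the shallow library SLC2A14 was higher (0.36, adjusted p 0.00243) and SLC2A8 lower (-0.37, adjusted p 0.0333). Then 4 of the 7 passed, beside 49.0% of all genes. Both counts are near the shares over all genes. Of 7 regulators of glucose uptake, 4 were higher and 2 lower in 1% oxygen, with and without the shallow library. Over all genes 31.4% passed with that library and 49.0% without it. TXNIP, an arrestin-like protein that takes glucose transporters off the membrane, stood at 106 FPKM in 1% oxygen, 83.2 FPKM in 5% oxygen and 50.4 FPKM in 21% oxygen (1% against 21%, 0.93, adjusted p 1.15e-11). Its paralog ARRDC4 (0.81), the HIF subunit EPAS1 (0.87) and MLXIP (0.26) were also higher, and MYC (-0.37) and MLX (-0.36) lower. HIF1A RNA, at 11.9, 12.5 and 12.6 FPKM in 1%, 5% and 21% oxygen, did not pass (-0.06, adjusted p 0.588).

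The group means of the genes were set beside those of all other genes with a mean of at least 5 FPKM, 7252 in number, by Pearson's r over the 12 groups, as a description of groups that share libraries. PFKFB4 was closest to PDK1 (r = 0.990), which keeps pyruvate out of mitochondria, then LDHA (0.984) and BNIP3 (0.982), a mitophagy receptor. GPI was closest to BNIP3 (0.977), the phosphoglycerate mutase PGAM1 (0.974) and PDK1 (0.969), and SLC2A1 to C4orf3 (0.975), ALDOA (0.971) and the blood group protein RHCE (0.971). SLC2A3 had other neighbours, led by the integrin ITGA5 (0.991), ARHGAP18 (0.989) and RAB5B (0.988), and PFKP was closest to YPEL5 (0.988), the actin-severing protein GSN (0.979) and the arginase ARG2 (0.977). HK2 was closest to ZNF292 (0.942), PFKL to WSB1 (0.958), PFKM to LEPROTL1 (0.943), PFKFB3 to KLHL22 (0.913) and HK1 to CNPPD1 (0.894). Some of these ranks changed with the shallow library: without it r was 0.831 for CNPPD1 and 0.927 for EME1 with HK1, 0.948 for WSB1 and 0.971 for PPME1 with PFKL, and 0.819 for KLHL22 with PFKFB3. Among the genes themselves, without the shallow library, r was 0.962 between GPI and PFKFB4 and 0.949 between SLC2A3 and PFKP, 0.796 between both transporters, and -0.844 between SLC2A1 and PFKM.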

How the data were processed

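Polyadenylated RNA was sequenced by a Smart-seq2 style protocol, per the labels' protocols. The authors made the deposited FPKM values of genes and transcripts with TopHat, Cufflinks and Cuffnorm, per the submitters' processing notes; versions and genome build: not given in the sources used here. Cuffnorm scales libraries against each other, and Cufflinks splits fragments between transcripts by estimate.

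The tested values were log2(FPKM + 1), a pseudocount of 1, in 1 limma model (limma 3.58.1, R 4.3.3) with 12 group means, 24 residual degrees of freedom, a trended prior, moderated tests, two-sided, with adjustment by Benjamini and Hochberg over 10625 genes with a mean of at least 1 FPKM. Shares were tested by permutation within times (100000 resamples), adjusted over 18 comparisons. The test was checked on simulated data. Members and lists were chosen with earlier results of these data known. The text names all 10 genes, up to 4 genes of each list by adjusted p and the 3 genes most like each member (for some only the first); MLX, MLXIP and HIF1A, and the list genes that did not pass, are named beyond that. Alternatives were another pseudocount, filter, scaling or sample set, the replicate number as a block, and leaving out each library. Promoter windows are from RefSeq (GRCh38.p14).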

Additional observations from a re-analysis of the deposited data

Results flagged for a closer look

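The difference from 21% oxygen varied over the 4 times for all 10 genes in 1% oxygen, by a moderated F test in limma, where 40.3% of all genes passed. The adjusted p was 5.4e-12 for GPI, 1.66e-08 for SLC2A3, 3.92e-08 for SLC2A1, 5.18e-08 for PFKFB4, 0.000236 for HK2, 0.00206 for PFKP, 0.00906 for PFKL, 0.0138 for PFKM, 0.0257 for PFKFB3 and 0.0491 for HK1. Without the shallow library HK1 no longer passed (adjusted p 0.0745). In 5% oxygen 5 of the 10 genes passed, where 14.5% of all genes did: GPI (6.61e-11), SLC2A3 (1.19e-10), SLC2A1 (6.28e-08), PFKFB4 (2.63e-07) and PFKP (1.82e-05). Without the shallow library HK2, PFKL and PFKM passed as well. GPI, SLC2A1 and PFKFB4 had their largest 1% differences at 6 d (1.52, 1.60 and 2.83 on the log2 scale), and SLC2A3 had its largest at 3 d (1.97).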

How the results depend on the processing

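Counts of passing genes among the 10, and isozyme shares, were recomputed under each alternative. Of 236 such values 197 were classed as kept. A share was kept if its direction and its side of the threshold stayed the same. A count was classed as kept also after a small proportional change, so kept counts need not be equal. The share of all genes that passed can move with the setting too. In 1% against 21% oxygen at 24 h it was 38.6% without the shallow library, in place of 16.2%. Such shares are not given here for every setting, so a changed count is not by itself a result about the 10 genes. With the quoted count first in brackets, the count for 1% against 21% oxygen at 24 h (4) was 8 after quantile normalization, after rescaling to TPM and without the shallow library, and that at 3 d (8) was 5 on the compared groups only. The count for 5% against 21% oxygen at 24 h (0) was 1 with a mean of at least 5 FPKM, 2 after quantile normalization or without the shallow library, and 6 after rescaling to TPM. Rescaling moved the median of all genes in those 24 h comparisons to 0.39 in 1% and 0.36 in 5% oxygen, beside -0.00 and -0.02 as deposited.

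For 1% against 5% oxygen, the averaged count (5) was 2 after rescaling to TPM and 3 on the compared groups only, that at 24 h (5) was 3 without a filter or after rescaling, that at 3 d (3) was 0 on the compared groups only, and that at 6 d (4) was 7 without the shallow library and 8 on the compared groups only. In 21% oxygen the count for 3 d against 6 h (2) was 1 after quantile normalization, 5 without the shallow library and 4 on the compared groups only. For 6 d against 6 h (2) it was 1 without a filter, after rescaling or with the replicate number as a block, and 4 without the shallow library or on the compared groups only. Variation over time in 5% oxygen (5) had 8 without the shallow library or on the compared groups only.

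For 6 d against 3 d, chosen after the data were seen, the count in 1% oxygen (8) was 3 after rescaling, 5 without the shallow library and 2 on the compared groups only. In 5% oxygen (1) it was 3 after quantile normalization, and 4 without the shallow library or on the compared groups only. In 21% oxygen (0; 2 at an unadjusted p under 0.05 in limma) it was 2 without the shallow library or on the compared groups only. The count for the difference between these changes was 3 after rescaling and 2 on the compared groups only for 1% oxygen (6), and 0 after rescaling for 5% oxygen (1).

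On leaving out the shallow library the PFKL share differed by 6.43 percentage points between 1% and 21% oxygen and by 1.62 points between 1% and 5% oxygen, and the PFKP share by -0.19 points between 1% and 21% oxygen. The averaged PFKFB3 difference was -0.11 in 1% oxygen with a pseudocount of 0.1. After quantile normalization that of PFKFB3, 5% against 21% oxygen, averaged over the 4 times, was -0.0324. The cause of these changes was not tested.

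Libraries were left out 1 at a time, from the groups compared only. The shallow library thus enters only the ranges of comparisons that use 1% oxygen at 3 d, and its removal elsewhere is given above. Leaving out libraries in this way gave 3 to 3 genes for 1% against 5% oxygen at 24 h, 0 to 4 at 3 d and 3 to 6 averaged. It gave 1 to 2 genes for 3 d and for 6 d against 6 h in 21% oxygen, and 0 to 1 for 5% against 21% oxygen at 24 h (1 without replicate 1 of 21% oxygen). For 6 d against 3 d it gave 5 to 9 in 1% oxygen, and 0 to 1 for the change in 5% against 21% oxygen. The averaged PFKFB3 difference ran from -0.0375 to 0.25 in 1% oxygen and from -0.0116 to 0.0722 in 5% oxygen. The PFKL share differed by 3.65 to 6.43 points between 1% and 21% oxygen and by -1.16 to 1.62 points between 1% and 5% oxygen, and the PFKP share by -0.19 to 2.38 points between 1% and 21% oxygen.

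Libraries with the same replicate number did not deviate together (mean correlations of -0.015, -0.003 and -0.013), so the numbers were not taken to pair libraries; apart from SLC2A1 at 6 d in 21% oxygen, the block changed no call of the quoted genes. Depth is unknown, so no counting error can be given for low genes such as PFKFB3, and 3 libraries a group cannot reach an exact permutation p under 0.1.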
